A study of Drosophila melanogaster with 16 samples.

Results

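The genes described here are 86 Drosophila melanogaster genes picked by their transcript ratios in DmD8 cells, between Notch-activated and comparison RNA. In the probe annotation used here each carries only a CG symbol, the serial name given to an annotated gene that has no name of its own. They were selected on the DmD8 log ratios themselves. A gene was kept if it had a value on at least 4 of the 5 DmD8 arrays, the same sign on every array with a value, and a mean log ratio, M, of at least 0.5 in size, where M is the mean of the 2 dye orientations. Of 5508 CG genes on the array, 3361 had enough DmD8 values, and 30 of these met the rule as higher with activated RNA (0.893%) and 56 as lower (1.67%). Among 4936 measured genes with another kind of name, 84 met the same rule as higher (1.7%) and 133 as lower (2.69%). Because the DmD8 values chose the 86 genes, those values are given as a description without a test, and tests were run only on the Kc arrays, which had no part in the choice.

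The study used long-oligonucleotide arrays with 2 dyes on 2 cultured Drosophila cell lines, DmD8, a line from larval imaginal discs, and Kc, a line from embryos with properties of blood cells. Activated cells were kept for 30 minutes with 2 mM EDTA in PBS, a buffered salt solution, and control cells received PBS alone. By title, one DmD8 experiment set activated cells against controls, and another set them against activated cells that had first spent the night in 300 µM DFK-167, which blocks gamma-secretase. Kc cells had activated and control arms only. All cultures were grown in Schneider's medium with fetal calf serum and insulin. According to the labels, 3 biological replicates and their dye swaps were hybridised per experiment, on 5 arrays for DmD8 and on 6 for Kc. Arrays and their swaps may share RNA, so p-values here may rest partly on technical spread. Each value is a ratio within an array and not a level, so the identity of the lines was not checked against marker genes, and fewer cells of a kind and less RNA per cell cannot be told apart.

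The 5 DmD8 columns with an inhibitor title and the 5 with a control title turned out to hold the same numbers. Among 71019 pairs of values, 24 were not identical, with a largest difference of 4.87e-08. The DmD8 arrays were counted once, and 11 distinct arrays remained of 16. Whether the comparison RNA in DmD8 came from control or from inhibitor-treated cells cannot be told apart. EDTA acts on more than Notch, and without a separate inhibitor experiment an effect of Notch and another effect of EDTA cannot be told apart either.

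Notch is a surface receptor that is cut by gamma-secretase once it is activated. The freed intracellular part enters the nucleus and, with the DNA-binding protein Su(H), switches on target genes. In flies the best known targets are the E(spl) genes, which encode repressors of the basic helix-loop-helix class. EDTA removes the calcium ions that hold the receptor's extracellular part in place and so triggers the cut without a ligand.

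The direction of the ratios is likely and not stated: the dye order in the labels puts a positive value as higher with activated RNA, and the dye swaps were taken as already turned by the authors. E(spl)m3-HLH, one of the E(spl) repressors, gave 1.31, 0.87, 0.33, 1.80 and 1.49 on DmD8 arrays 1 to 5, and between 3.92 and 4.55 in Kc with a median of 4.10. Egfr, the receptor of the epidermal growth factor pathway, gave 3.25, 2.73, 1.85, 2.11 and 1.96 in DmD8 and between -0.09 and 0.48 in Kc. Both genes were therefore positive on DmD8 arrays of both orientations. Across 10060 features with a value on all arrays, the mean correlation between arrays of the same orientation was 0.535 in DmD8 and 0.615 in Kc, and between opposite orientations it was -0.0336 and 0.00999. With the signs of the swaps turned, the same rule kept 217 CG genes. By construction none of them is among the 86, since every one of these had the same sign in both orientations. The count itself is not fixed by construction. The 217 are genes whose deposited values changed sign with the dye orientation, and they outnumber the 86. Which direction holds was not tested.

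DmD8 arrays 1 to 3 had activated RNA in Cy5, and arrays 4 and 5 were dye swaps. Values were present for 80 of the 86 genes on all 5 arrays and for 6 on 4 arrays. One gene, CG8026, had more than 1 probe, and its 2 probes gave M of -0.88 and -0.55. The 30 higher genes had a median M of 0.61 (range 0.51 to 1.75), and the 56 lower genes had a median M of -0.71 (range -2.35 to -0.50). A size of 1 or more was reached by 2 of the higher and 11 of the lower genes. As deposited, the lower genes were thus both more numerous and, at their extreme, further from 0. With each array centred on its median, the rule kept 42 higher and 50 lower genes, so the size of this excess depends on the centring.

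**Figure D1:**
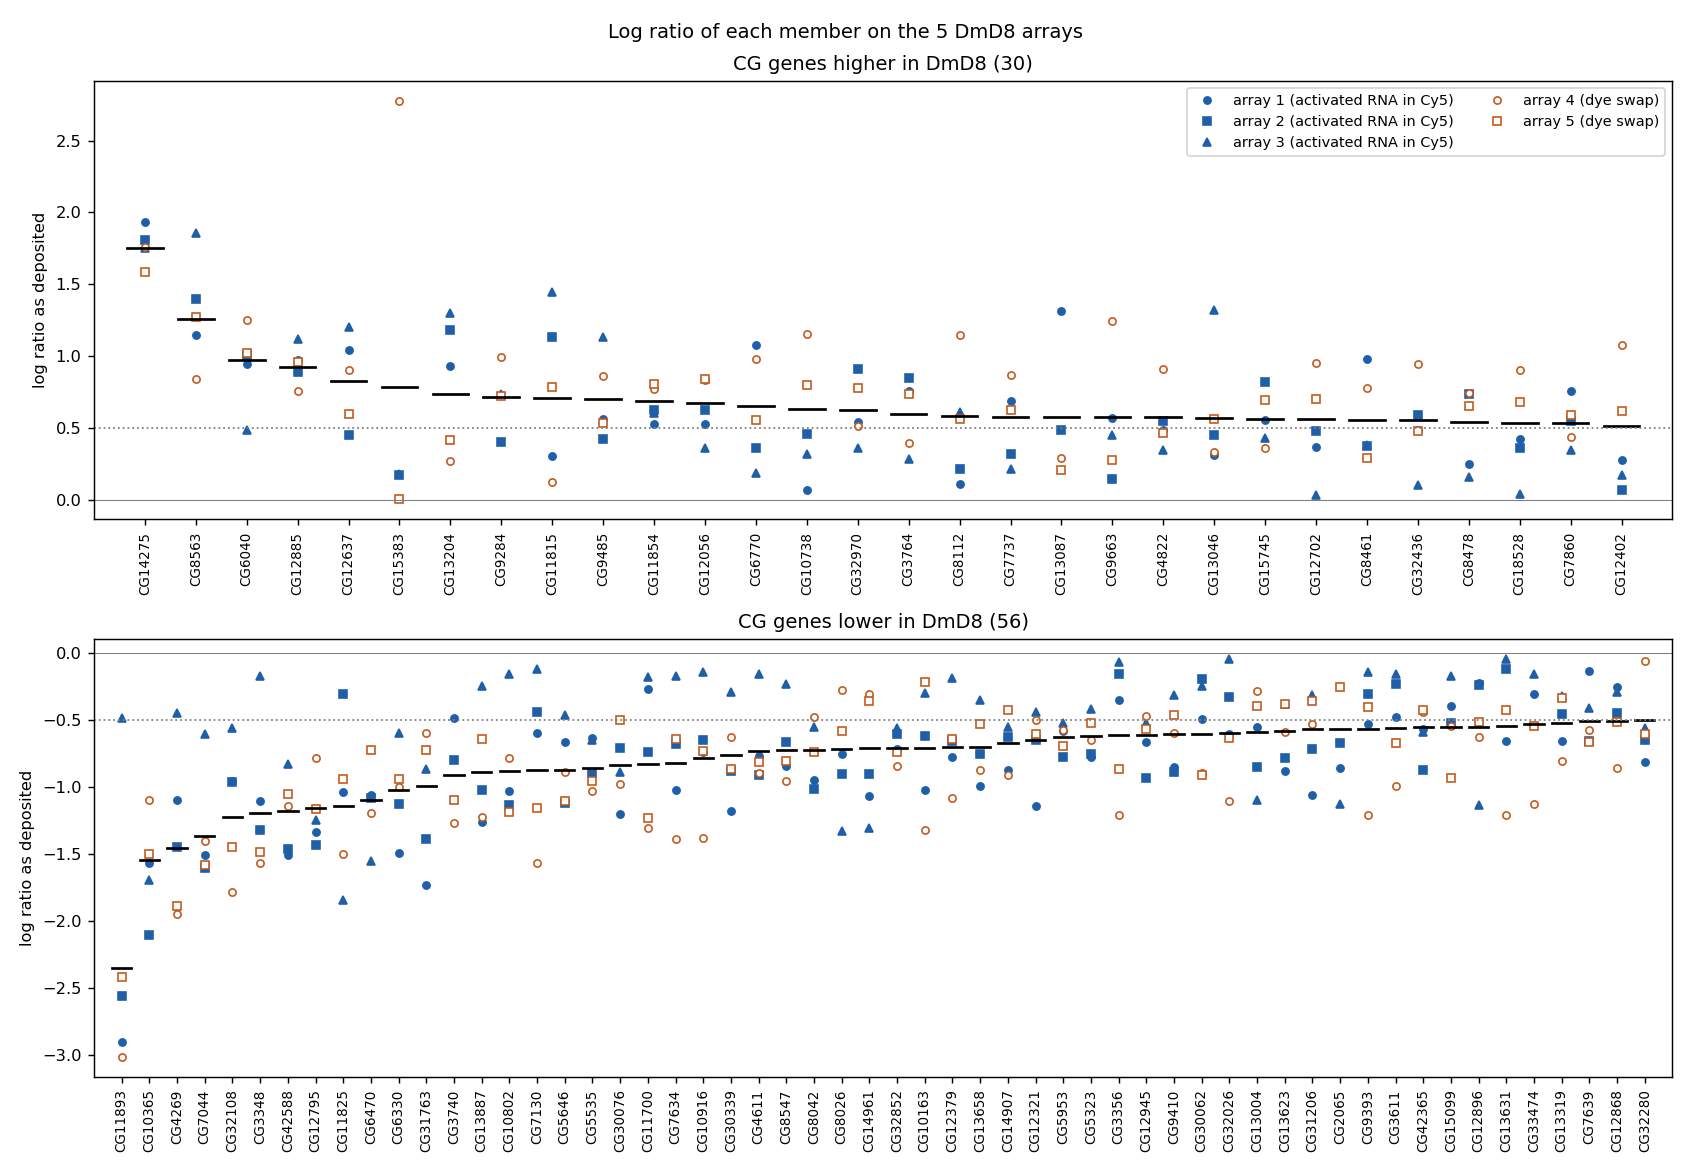
Log ratio as deposited (vertical axis) on each DmD8 array for the 86 CG genes (horizontal axis, ordered by M), with the 30 higher genes above and the 56 lower genes below. Filled points are arrays with activated RNA in Cy5, open points are dye swaps, black bars are M, and the dotted line is the rule's size of 0.5. CG14275 leads the higher genes at 1.75 and CG11893 the lower genes at -2.35.

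Replicate spread was uneven between genes and between arrays. The SD over arrays had a median of 0.32 among the 86 genes (range 0.10 to 1.33), against 0.27 over all measured CG genes. Every single value lay past 0.5 in size for 4 of the higher and 12 of the lower genes. Array 3 gave the smallest value in size for 46 of the genes, 12 higher and 34 lower, and array 4, a dye swap, gave the largest for 36. On arrays 1 to 5 the median of the lower genes was -0.82, -0.75, -0.42, -0.90 and -0.68, and that of the higher genes was 0.56, 0.51, 0.38, 0.87 and 0.64. The response of both groups was thus smallest on array 3 and largest on array 4.

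Membership close to the threshold rested on small differences. The nearest higher genes inside it were CG12402 at 0.51 and CG7860, of the isoaspartyl peptidase and asparaginase family, at 0.53, and the nearest outside were CG8128 at 0.50 (0.497 before rounding) and CG10799 at 0.49. On the lower side CG32280 at -0.50 and CG12868 at -0.51 were kept, whereas CG6287 and CG15011, both also at -0.50, were not. When 1 array was left out, the rule was relaxed to at least 3 values and asked for the same sign on the remaining arrays only. Without array 4, 17 of the 86 genes no longer met it, and without array 3 only 2 did not. With each array centred on its median, 92 genes met the rule, 79 of them among the 86, and the share of higher genes was 45.7% against 34.9% as deposited.

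Molecular roles known as background were available for 27 of the 86 genes, 10 higher and 17 lower, and the other 59 carry no role here. The groups by role were made after the members were known. The largest group held 10 metabolic and other enzymes that were placed under no other heading, 3 higher and 7 lower, with M from -2.35 to 0.70. Members with enzyme activity that act outside the cell, at its surface or in protein degradation were counted under those headings. All 4 genes of protein folding and degradation were on the lower side, with M between -0.89 and -0.61. Transporters divided into 2 higher and 3 lower genes, and both genes of the cell surface were higher.

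Among the higher genes, CG14275 stood first. It encodes a protein of the Ly6 family, small disulphide-rich proteins that are usually tethered to the cell surface by a lipid anchor. Its log ratios were 1.94, 1.81, 1.75, 1.76 and 1.59 on arrays 1 to 5, giving M of 1.75 ± 0.13 (SD, n = 5).

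CG8563, a metallocarboxypeptidase that trims amino acids from the ends of peptides, followed with 1.15, 1.40, 1.85, 0.84 and 1.27 (M = 1.26). CG6040, for which no role is given, had 0.94, 1.01, 0.48, 1.25 and 1.02 (M = 0.97). CG12885 had 0.97, 0.89, 1.12, 0.76 and 0.96 (M = 0.93). The lowest value among these 3 genes was 0.48, so no single array carried them. CG12637 (M = 0.82), CG13204 (0.74), CG9284 (0.71) and CG11815 (0.71), all without a role here, completed the upper end together with CG9485.

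CG9485, the glycogen debranching enzyme that frees glucose from the branch points of glycogen, had M of 0.70 with values between 0.42 and 1.14. CG15383 was different from the rest. Its M of 0.78 rested on array 4, where it was 2.78, whereas arrays 2, 3 and 5 gave 0.17, 0.18 and 0.0044, and array 1 had no value. Its SD of 1.33 was the highest among the 86 genes.

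Other higher genes with a known role lay closer to the threshold. CG11854, of the takeout family of secreted carrier proteins, was narrow, with values between 0.53 and 0.81 (M = 0.69). CG10738, a receptor guanylyl cyclase that makes cyclic GMP at the membrane, ranged from 0.07 to 1.15 (M = 0.63). CG6770, of the family of the stress-responsive nuclear protein NUPR1, had 1.08, 0.36, 0.19, 0.98 and 0.55 (M = 0.66). Both ABC transporters of the ABCG class, CG9663 and CG4822, which move lipids or other small molecules across membranes, had M of 0.57. CG8112, a sterol O-acyltransferase that esterifies sterols for storage, had M of 0.58 with values from 0.11 to 1.15, so its size differed widely between arrays.

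The lowest ratio belonged to CG11893, of the ecdysteroid kinase-like family, named for an insect enzyme that phosphorylates moulting hormones. It gave -2.90, -2.56, -0.48, -3.01 and -2.42 (M = -2.35 ± 1.03, SD, n = 5). Array 3 stood apart, and the other arrays were all at -2.42 or lower. CG13658, of the same family and the next protein-coding gene on the chromosome, gave -0.99, -0.75, -0.34, -0.87 and -0.52 (M = -0.70), again with array 3 nearest to 0. Paralogs can share probe signal, and whether these probes did was not tested.

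CG10365, of the ChaC family of gamma-glutamylcyclotransferases, which break down glutathione, gave -1.57, -2.10, -1.69, -1.10 and -1.49 (M = -1.54 ± 0.36, SD, n = 5). CG4269 gave -1.09, -1.45, -0.45, -1.95 and -1.88 (M = -1.46), and CG7044 gave -1.50, -1.60, -0.60, -1.40 and -1.58 (M = -1.36). All values of CG10365 were past -1, while the other two came nearest to 0 on array 3. CG32108 (M = -1.22), CG3348 (-1.19), CG42588 (-1.18), CG12795 (-1.15) and CG6470 (-1.09) have no role here. CG12795 ranged from -1.43 to -0.78, and CG3348 from -1.56 to -0.17.

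Nucleotide and redox enzymes were among the lower genes too. CG6330, a uridine phosphorylase that frees uracil from uridine, gave M of -1.02 with values from -1.49 to -0.59. CG12896, a peroxiredoxin that reduces peroxides, had M of -0.55, CG2065, a short-chain dehydrogenase, -0.57, and CG32026, of the isocitrate dehydrogenase family, -0.59. CG11825, with the hypoxia-induced HIG1 domain found in mitochondrial proteins that assist the respiratory chain, gave -1.04, -0.30, -1.84, -1.50 and -0.94 (M = -1.14). CG7639, the fly homologue of the mitochondrial outer membrane protein Sam50, which inserts barrel-shaped proteins into that membrane, was near the threshold at -0.51.

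The 4 genes of folding and degradation were CG13887, of the BAP31 family of endoplasmic reticulum proteins (M = -0.89), CG7130, with the DnaJ domain of Hsp70 co-chaperones (-0.87), CG11700, which encodes ubiquitin (-0.83), and CG3356, a HECT ubiquitin ligase (-0.61). In all of them array 3 gave the value nearest to 0, between -0.24 and -0.06. The lower transporters were CG5535, of the cationic amino acid transporter family (M = -0.86), and the mitochondrial carriers CG5646 (-0.87) and CG8026 (-0.71). CG5535 was at -0.63 or lower on every array. CG30062, of the lysozyme family of bacterial cell wall hydrolases, had M of -0.60.

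Kc was the independent measurement. The question was whether the CG genes selected in DmD8 also moved in Kc. A gene was tested with limma on the 6 Kc arrays if at least 3 of them had a value, with both orientations, and p-values were adjusted by Benjamini-Hochberg over all 14439 features at a threshold of 0.05. The 6 arrays came from 3 biological replicates and their swaps, so the standard errors, intervals and p-values given per gene count arrays and may be too small. Of the 86 genes, 78 could be tested. Untested genes were 7 of the 30 higher ones (23.3%) and 1 of the 56 lower ones (1.79%), against 5.34% of the 3275 other CG genes measured in DmD8. CG8563, CG12885, CG12637, CG9284 and CG11815 from the upper end had values on at most 2 Kc arrays, so they could not be tested.

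In Kc, 9 of the 78 genes rose and 9 fell. Over all features 625 rose (4.33%) and 401 fell (2.78%). The 18 genes were 23.1% of those tested, against 7.11% of all features and 9.26% of the other CG genes measured in DmD8 (287 of 3100). Their shares were not matched for spread: the median SD over Kc arrays was 0.24 among the 78 genes and 0.29 over all CG genes tested. At an unadjusted p under 0.05 there were 33 (42.3%), against 21.6% of all features. When each swap was averaged with a replicate, in every one of 6 possible pairings, 7 of the genes rose and 7 fell under all pairings, of 76 that could be tested so. Over all 12203 features tested in every pairing, 328 rose (2.69%) and 168 fell (1.38%). The 4 genes lost in this way were CG12795, CG9663, CG9410 and CG11700.

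Most of the genes did not pass in Kc, and those that did moved in either direction relative to DmD8. Of the 23 tested genes that were higher in DmD8, 4 rose in Kc, 1 fell and 18 did not pass the test. Of the 55 that were lower in DmD8, 8 fell, 5 rose and 42 did not pass. The median Kc log ratio was -0.02 for the DmD8-higher genes and 0.01 for the DmD8-lower genes, against 0.01 over all features. Across the 78 genes the DmD8 and Kc values had Pearson r of 0.0565 and Spearman rho of 0.0497, given as a description since genes are not independent replicates.

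**Figure D2:**
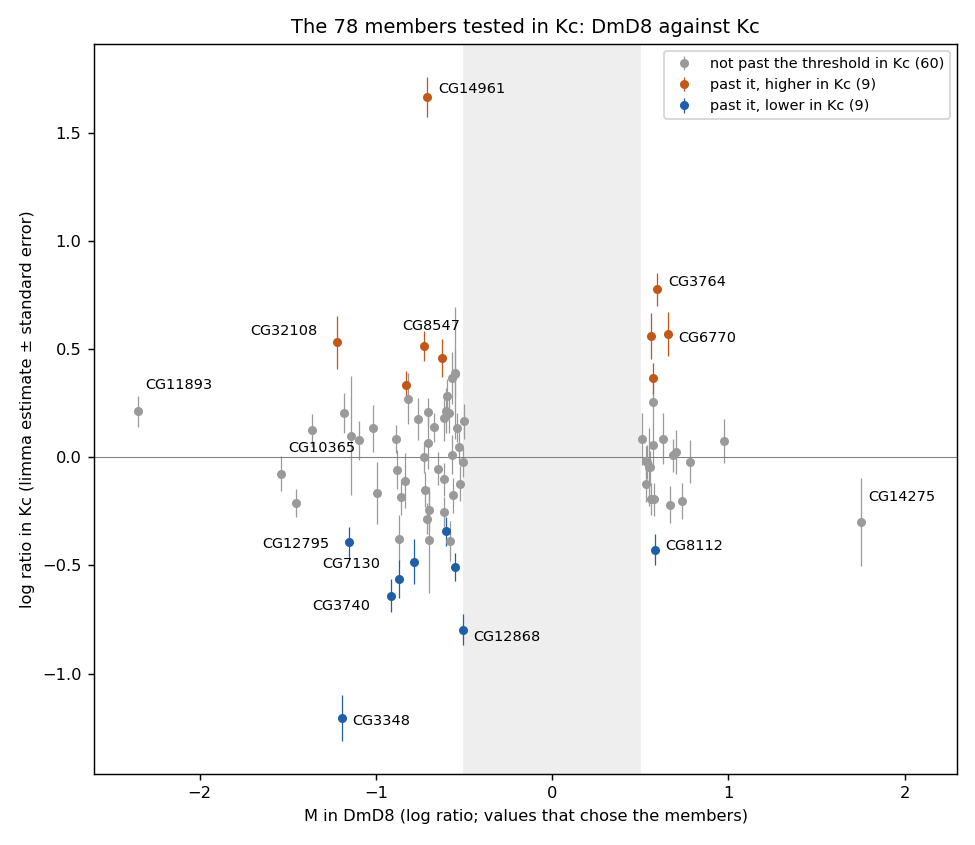
M in DmD8 (horizontal axis, log ratio) against the limma estimate in Kc with its standard error (vertical axis, log ratio) for the 78 genes tested in Kc; orange and blue points passed the Kc threshold as higher (9) and lower (9), and grey shading spans the range excluded by the DmD8 rule. Most points lie near 0 in Kc, and CG14961 at 1.67 and CG3348 at -1.20 lie furthest away.

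For many genes the Kc data bounded the response. In 51 of the 78 genes the 95% interval of the Kc log ratio over 6 arrays lay within 0.5 of 0, the size that the DmD8 rule required. With swaps averaged in the pairs 1 and 4, 2 and 5, and 3 and 6, this held for 47 of 76. The share of all CG genes with such an interval was not counted. A Kc log ratio of 0.5 or more in size was found for 11 of the 78 genes and for 6.12% of all CG genes tested. CG10365 had a Kc log ratio of -0.07 (interval -0.27 to 0.12, limma adjusted p = 0.679), and CG7044 had 0.12 (interval -0.05 to 0.30, limma adjusted p = 0.414). CG11893 was positive on all 6 Kc arrays, between 0.07 and 0.37 with a median of 0.18, but its estimate of 0.21 did not pass (limma adjusted p = 0.127). CG14275 was not well determined, with 5 Kc values from -1.52 to 0.59, a median of -0.07 and an interval from -0.78 to 0.18.

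The rule used in DmD8, applied to Kc with at least 4 arrays, was met by 5 of the genes as higher and 5 as lower, of 77 with enough values. Over all CG genes it was met in Kc by 75 of 3826 as higher (1.96%) and by 48 as lower (1.25%).

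CG14961, with no role here, had the largest Kc response of the 78 genes and the opposite sign in DmD8. Its DmD8 values were -1.07, -0.90, -1.30, -0.31 and -0.35 (M = -0.71), whereas on the 6 Kc arrays it lay between 1.19 and 1.86 with a median of 1.73. The Kc log ratio was 1.67 ± 0.09 (SE over 6 arrays, limma adjusted p = 0.000177), and it passed under every pairing of the swaps (largest adjusted p = 0.0053). No Kc value came near the range of the DmD8 values. The next largest rise was that of CG3764, which was positive in both lines, with M of 0.60 in DmD8 and Kc values between 0.59 and 0.94 around a median of 0.81. It rose in Kc by 0.78 ± 0.08 (SE, limma adjusted p = 0.0018).

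CG6770, of the NUPR1 family, rose by 0.57 ± 0.10 (SE, limma adjusted p = 0.0201), with Kc values between 0.22 and 0.85 and a median of 0.54. It was also positive on all DmD8 arrays. CG15745, also higher in DmD8, rose by 0.56 ± 0.11 (limma adjusted p = 0.025). The ABCG transporter CG9663 was the fourth gene positive in both lines, at 0.36 ± 0.07 in Kc (limma adjusted p = 0.0271), a call lost in at least 1 pairing of the swaps. CG4822, of the same class, had 0.26 with an interval from -0.01 to 0.53 and did not pass, and whether these transporters differed was not tested.

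Besides CG14961, the genes lower in DmD8 that rose in Kc were CG32108, CG8547, CG5953 and CG11700. CG32108 rose by 0.53 ± 0.12 (limma adjusted p = 0.0422), CG8547 by 0.51 ± 0.07 (limma adjusted p = 0.0073) and CG5953 by 0.46 ± 0.09 (limma adjusted p = 0.0246). CG5953 was among the most even genes in DmD8, with values from -0.78 to -0.52 and an SD of 0.10, and it was positive on every Kc array, from 0.19 to 0.72 with a median of 0.48. CG8547 was likewise negative on all DmD8 arrays and positive on all Kc arrays, from 0.33 to 0.62. CG32108 was less even in Kc, between -0.11 and 1.28 with a median of 0.57. The ubiquitin gene CG11700 gave 0.33 in Kc (limma adjusted p = 0.0291), which did not hold in every pairing.

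Of the genes that fell in Kc, 8 were also lower in DmD8. CG3348 fell by 1.20 ± 0.11 (SE, limma adjusted p = 0.0013), with Kc values between -1.54 and -0.92 and a median of -1.17, close to its DmD8 M of -1.19. CG12868, just inside the DmD8 threshold at -0.51, lay between -0.93 and -0.64 in Kc and had an estimate of -0.80 ± 0.07 (limma adjusted p = 0.00131). CG3740 had M of -0.91 in DmD8 and -0.64 ± 0.07 in Kc (limma adjusted p = 0.004). These 3 genes were negative on every array of both lines that had a value.

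The DnaJ-domain gene CG7130 fell by 0.56 ± 0.09 (limma adjusted p = 0.0116) and ranged from -1.10 to -0.05 in Kc. CG42365 fell by 0.51 ± 0.07 (limma adjusted p = 0.00579), and its Kc values, between -0.69 and -0.31, were close to those in DmD8, between -0.87 and -0.43. CG10916, CG12795 and CG9410 completed the group with -0.48, -0.39 and -0.34, of which only CG10916 passed under all pairings. CG8112, the sterol O-acyltransferase, was the single gene higher in DmD8 that fell in Kc. It lay between -0.67 and -0.06 in Kc with a median of -0.50, and its estimate was -0.43 ± 0.07 (limma adjusted p = 0.0165).

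**Figure D3:**
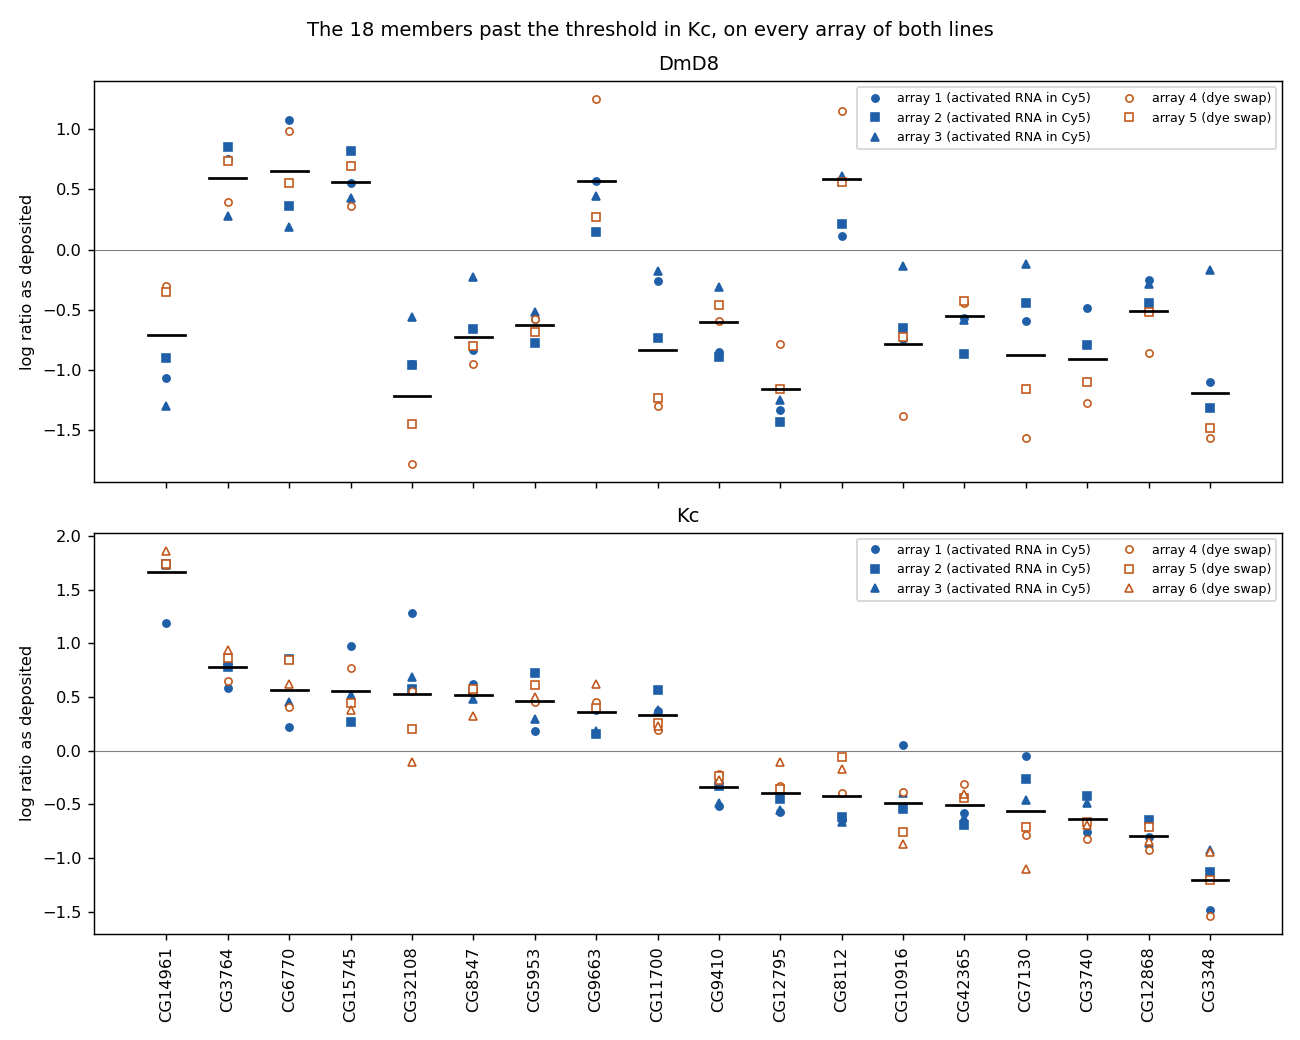
Log ratio as deposited (vertical axis) for the 18 CG genes that passed the limma test in Kc (horizontal axis), on DmD8 arrays in the upper panel and Kc arrays in the lower one. Filled points have activated RNA in Cy5, open points are dye swaps, and black bars are the mean of the 2 orientations. CG14961 is negative on all 5 DmD8 arrays and above 1 on all 6 Kc arrays, and CG3348 is negative on every array of both lines.

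How firmly these calls stood depended on few arrays. Deviations of the Kc arrays from the mean of their dye orientation were correlated between Kc replicate 1 and swap 4 (r = 0.469), 2 and 5 (0.342) and 3 and 6 (0.286) over 11130 features, while other pairs of opposite orientation lay between -0.327 and -0.0676. With the swaps averaged in those pairs, 14 genes passed, which are the same 14 as under all pairings, against 3.31% of all features higher and 1.68% lower. Deviations sum to 0 within an orientation, so negative values among the other Kc pairs are partly forced by construction. In DmD8 the values were 0.278 for arrays 1 and 4, 0.272 for 2 and 5, and 0.0464 for 3 and 4, over 10940 features. With only 2 swaps, the other swap has the same value with the opposite sign, so a positive value per array is there by construction. Without Kc arrays 2 and 5, only CG12868, CG14961, CG3348, CG3740 and CG3764 passed, with 1.15% of all features. No other pair was left out, so the loss of any 2 arrays and the loss of these cannot be told apart. Leaving out 1 Kc array at a time left between 9 genes (without array 5) and 16 (without array 2), with 11 without array 1 and 11 without array 4. Of the 18 genes, 8 passed in all 6 of these fits (CG3764, CG12868, CG42365, CG14961, CG8547, CG7130, CG3740 and CG3348). CG11700 passed in none, CG9663 and CG9410 in 1, and CG10916, CG15745 and CG32108 in 2. With each array centred on its median, 8 genes rose and 10 fell, and the share of higher calls over all features was 49.5% against 60.9% as deposited.

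By role, the Kc calls were scattered. Of the 10 genes grouped as enzymes only CG8112 passed. Of the 4 folding and degradation genes CG11700 rose and CG7130 fell, while CG13887 had 0.08 (interval -0.07 to 0.24) and CG3356 had 0.18. Both mitochondrial genes, both secreted genes that were tested and both surface genes did not pass. Among transporters only CG9663 passed, while the mitochondrial carriers CG5646 and CG8026 had -0.38 and -0.28 with limma adjusted p of 0.0868 and 0.0575. Counts in these groups are too small for a comparison between them.

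Gene order was taken from the RefSeq annotation of Release 6 plus ISO1 MT, in which 78 of the 86 CG symbols matched, all under the same symbol. The deposited files name no genome build, so the annotation was used for names and neighbours only. Adjacent or nearly adjacent pairs within the set were CG13658 with CG11893, CG11825 with CG33474, which overlap, and CG33474 with CG12896, which have 1 protein-coding gene between them. These 3 pairs were on the lower side, whereas CG12885 (M = 0.93) and CG5646 (M = -0.87), with 4 protein-coding genes between them, had opposite signs.

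Genes flanking the selected ones also had DmD8 values. Of 66 measured flanking genes beside 46 of the lower genes, 12 met the same rule as lower (18.2%) and 0 as higher. Over all 8297 named genes with enough DmD8 values, 189 met it as lower (2.28%) and 114 as higher (1.37%). When flanking genes that are themselves in the set were left out, 8 of 62 met it (12.9%). Genes that overlapped the selected gene made up 17 of the 66, of which 4 met the rule. The median M of the 66 flanking genes was -0.10, so most were near 0. Beside 20 of the higher genes, 29 flanking genes had M from -0.24 to 0.40 and none met the rule. These counts come from the same DmD8 arrays that chose the genes and carry no test.

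**Figure D4:**
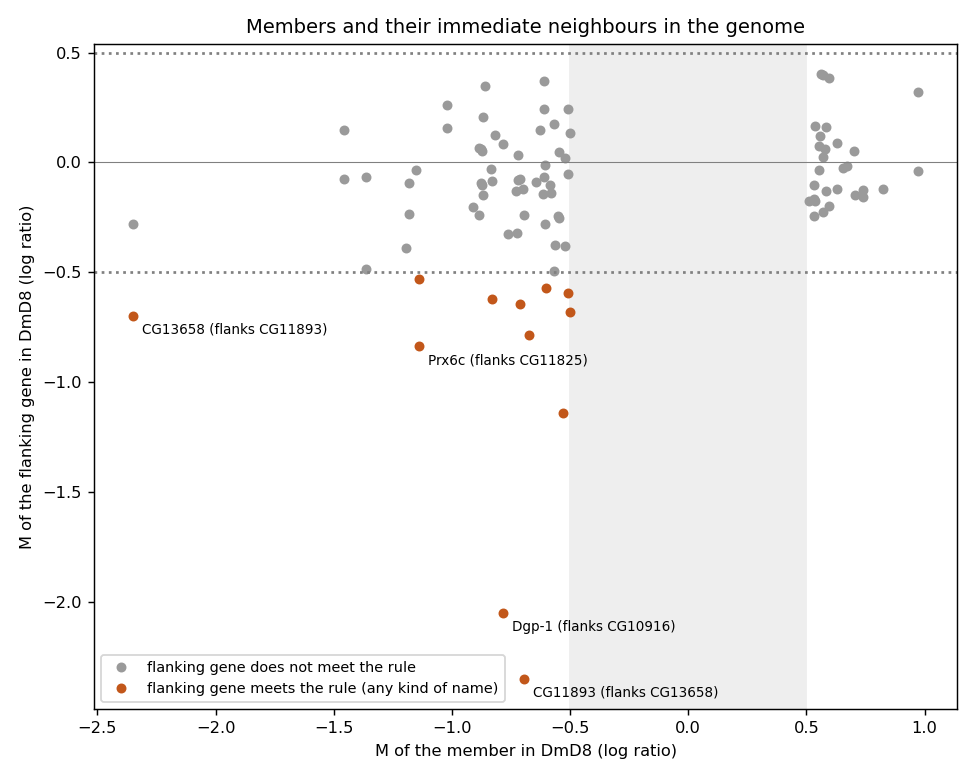
M in DmD8 (log ratio) of each measured flanking gene against M of the selected CG gene beside it, with dotted lines and grey shading at the rule's size of 0.5 and orange points for flanking genes that meet the rule. Beside the lower genes 12 of 66 flanking genes meet the rule as lower, and beside the higher genes none of 29 does.

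The flanking genes that met the rule as lower are named here after their values were seen. Dgp-1, beside CG10916, had M of -2.05, and Prx6c, a peroxiredoxin gene beside CG11825, had -0.84. Gtpx, a peroxidase gene beside CG14961, had -0.65, and Ubi-p5E, a ubiquitin gene beside CG11700, had -0.62. Because Ubi-p5E and CG11700 both encode ubiquitin, their probes may have read the same transcripts, and this was not tested. Mettl4 beside CG14907 (-0.78), Asciz beside CG32280 (-0.68), pcs beside CG7639 (-0.60) and Golgin97 beside CG30062 (-0.57) were the other non-members that met the rule.

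In the neighbourhood of Prx6c, CG11825, CG33474 and CG12896, also chosen after its values were seen, Kc values were uneven for all but CG33474. On Kc arrays 1 to 6, CG12896 gave 1.48, 0.33, -0.46, 1.47, 0.14 and -0.62, and CG11825 gave 1.03, 0.15, -0.88, 1.00, 0.04 and -0.74. Prx6c, which is not in the set, gave 1.20, -0.10, -1.07, 1.32, 0.29 and -0.40. All of these were high on arrays 1 and 4 and low on arrays 3 and 6. CG33474, which overlaps CG11825, stayed between -0.17 and 0.24 on the same arrays. The SDs of CG12896 (0.91) and CG11825 (0.82) over the Kc arrays were the 2 largest among the 77 genes with at least 4 Kc arrays. Neither passed in Kc, and copies of peroxiredoxin genes may share probe signal, which was not tested.

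**Figure D5:**
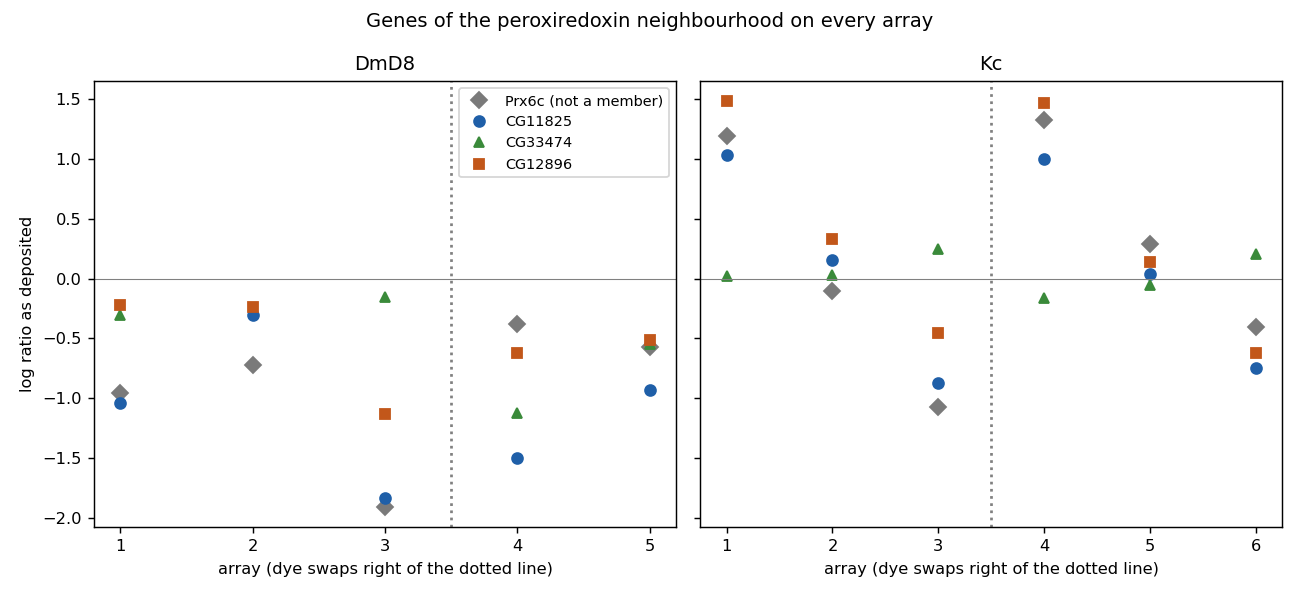
Log ratios as deposited for Prx6c, CG11825, CG33474 and CG12896 on each DmD8 array (left) and each Kc array (right), with dye swaps to the right of the dotted line. In Kc the values of CG11825, CG12896 and Prx6c are high on arrays 1 and 4 and low on 3 and 6, whereas CG33474 stays near 0; in DmD8 all values are below 0.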

How the data were processed

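Transcript ratios of DmD8 and Kc cells were measured on 2-colour FlyChip FL002 long-oligonucleotide arrays. The labels name Dapple as the program that quantified the spots; no label or header names the background correction, normalization, spot filter or log base. The deposited values, as the authors left them, are log ratios for 17258 probes, taken as log2 from their range and given as log ratios, not folds. Between 13353 and 15638 probes per array had a value (77.4% to 90.6%), and array medians ran from -0.13 to 0.16. Precision is limited by the number of arrays. The 5 value columns with an inhibitor title duplicate the control-titled ones and were not used.

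Probes of a gene were averaged. M is the mean of the replicates' and the swaps' means. The members and lists were chosen with earlier results of these data known. DmD8 values were described only. Kc was tested with limma 3.58.1 in R 4.3.3 on all features with at least 3 Kc arrays and both orientations. The test had a dye term and was two-sided, with Benjamini-Hochberg adjustment over 14439 features at 0.05. The procedure was tried on simulated data with independent noise on 6 arrays. It recovered 55% of shifts of 0.5 and 89% of shifts of 1.0, and 5.88% of its calls were false. Noise shared between replicates and swaps was not simulated. Kc genes are given by lowest, median and highest value. Named genes were the 10 highest and 10 lowest M, up to 6 Kc calls in each direction, the genes nearest the threshold, neighbouring members, and 2 orientation genes; genes with a known role, the other Kc calls, CG4822, and the flanking genes were added after their values were seen. Alternatives were array centring, turned swap signs, no dye term, Cy5 arrays only, stricter coverage, a robust prior, both lines in 1 fit, averaged swaps, and left-out arrays. Sequences and promoters were not analysed here. Figures were drawn with matplotlib 3.10.9.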

Additional observations from a re-analysis of the deposited data

Results flagged for a closer look

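Single arrays stood apart from the others of their line for 4 of the results. CG15383 gave 2.78 on DmD8 array 4, against 0.0044 to 0.18 on the others with a value. CG11893 gave -0.48 on DmD8 array 3, against -3.01 to -2.42 elsewhere, and CG7044 gave -0.60 on the same array, against -1.60 to -1.40. CG14961 gave 1.19 on Kc array 1, against 1.73 to 1.86 on the other Kc arrays. In 66 groups of values examined in this way, chance alone marks about 1 in 20.

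For 13 of the 78 genes with at least 3 Kc arrays, every DmD8 array with a value had one sign and every Kc array the opposite one. In DmD8, 10 of them were lower and 3 higher. For 17 genes, 13 lower and 4 higher in DmD8, every array of both lines had the same sign. The single sign in DmD8 was fixed by the rule, so only the Kc signs were free to vary. The shares of all CG genes with such patterns were not counted, so whether these counts are unusual cannot be told. Of the 13 genes with opposite signs, 5 are among the genes chosen by the naming rule. CG11893, CG5953, CG8547 and CG14961 were negative in DmD8 and had Kc log ratios of 0.21, 0.46, 0.51 and 1.67. CG8112 was positive in DmD8 and had -0.43 in Kc. These differences between the lines were not tested, because the DmD8 values chose the genes.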

How the results depend on the processing

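With the swap signs turned the rule kept 217 CG genes, 179 of them lower, against 86 and 56. In Kc that setting gave 1281 features lower, and 3 of the members higher and 4 lower, and it turned the sign of CG3348 (0.024), CG5953 (-0.061), CG6770 (-0.057), CG3764 (-0.040), CG14961 (-0.11), CG12868 (0.028), CG3740 (0.084) and CG7130 (0.30). By construction it gives the dye part and not the mean. Without the dye term 209 features were higher and 101 lower, with 5 members higher and 4 lower. Features lower were 623 with both lines in 1 fit and 956 with the arrays having activated RNA in Cy5 only, where 36.1% of calls were higher. With swaps averaged in the pairs 1 and 4, 2 and 5, and 3 and 6, 412 features were higher and 209 lower. Without Kc arrays 2 and 5 these were 109 and 46, with 2 members higher and 3 lower. The causes of these shifts were not tested. The last setting also rests on fewer arrays, and no other pair was left out to compare with it. Leaving out 1 Kc array gave 201 to 455 features higher, 114 to 250 lower, and 3 to 8 members higher, lowest without array 5. Leaving out 1 DmD8 array, with at least 3 values then required, gave 87 to 120 members. Of the other values of named genes in Kc, 553 stayed on the same side of the threshold, 43 lost the call and 3 gained it. The 553 include genes without a call whose sign changed, such as CG32280, which ran from -0.24 to 0.22. All 3 gains came with the swap signs turned, where CG12402 (from 0.08 to -0.57) and CG13204 (from -0.20 to 0.33) also changed sign. Requiring only 2 arrays added no test. No paired analysis was possible because swaps share no replicate number in the labels and no groups of arrays were compared; the averaged pairs above are a hint from the data. Spot intensities were not used here.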
